A study of Mus musculus with 8 samples.

Results

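Chemokines and their receptors were examined in the white fat that surrounds the epididymis (epididymal white adipose tissue) of male mice. The genes were taken by symbol: protein-coding genes named Ccl, Cxcl, Ccr or Cxcr followed by a number, and Ackr1 to Ackr4. Of 34866 genes in the deposited table, 59 met this rule, 39 ligands and 20 receptors. Of the 59 genes, 25 had a total of 80 or more estimated counts over the 8 libraries, of which 24 are described singly, 27 had a smaller total above 0, and 7 were at 0 in all libraries. Just inside that limit lay Cxcl13 at 89 and Ccl5 at 109 counts, and just outside it Ccl12 and Ackr2 at 75 counts each. Cxcl11, annotated as a polymorphic pseudogene, was not counted.

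All 8 samples carried the floxed aromatase gene on both alleles (genotype Aromatase flox/flox). The 4 control samples had that genotype alone, and the 4 knockout samples carried the aP2-Cre transgene in addition (aP2-Cre;Aromatase flox/flox). Ages are not given in the labels. The aP2 promoter is that of Fabp4, a fatty-acid binding protein gene that macrophages can also express, and mice with the transgene but no floxed allele were not analysed here. An effect of Cre and one of the deletion therefore cannot be told apart. The study compared the genotypes to look for genes through which aromatase, the enzyme that makes oestrogens from androgens, acts on phosphorus metabolism from adipose tissue.

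Chemokines are small secreted proteins that guide the movement of leukocytes, which carry matching receptors coupled to inhibitory G proteins. CC ligands have their first cysteines side by side, whereas CXC ligands have a single residue between them, and most receptors bind several ligands of their own class. Atypical receptors bind ligands without G-protein signalling and remove or transport them. In fat, Ccl2 is known for attracting monocytes through Ccr2, and Cxcl12 for retaining leukocytes through Cxcr4.

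The coding stretch that sets the CC and CXC classes apart is shown for 6 ligands that recur in the results, read 5′ to 3′ along the mRNA in GENCODE release M21, with the class-defining cysteine codons (TGC or TGT) in capitals. In the CC ligands the codons adjoin, and in the CXC ligands 1 codon lies between them. The first capital codon is codon 34 of Ccl2, 50 of Ccl6, 57 of Ccl9, 33 of Cxcl1, 30 of Cxcl9 and 30 of Cxcl12.
Ccl2: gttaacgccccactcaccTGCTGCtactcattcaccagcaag
Ccl6: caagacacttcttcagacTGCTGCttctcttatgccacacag
Ccl9: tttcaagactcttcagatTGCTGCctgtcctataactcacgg
Cxcl1: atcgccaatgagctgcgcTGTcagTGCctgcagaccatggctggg
Cxcl9: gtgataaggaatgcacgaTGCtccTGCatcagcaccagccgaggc
Cxcl12: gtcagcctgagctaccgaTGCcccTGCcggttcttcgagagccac

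Each library held 1538427 to 3053565 estimated counts, control replicate 4 having the fewest. Levels are given in CPM, counts scaled to a common library total after trimmed mean of M values (TMM) correction. They are not divided by gene length, and differences are read between libraries, not between genes. Counting error alone allows up to 3 counts, or 0.982 to 1.95 CPM, where a library shows 0. Adipocyte markers were abundant (9 of 9 tested, 29205 to 48654 CPM in sum), and of 9 epididymis markers 5 were at 0 in every library and the sum of the others stayed at 14 CPM or less. Cyp19a1 (chromosome 9, 54165937 to 54268110), the targeted gene, had 0 to 5.017 counts per library (control 1 ± 0.841 CPM, knockout 0.736 ± 0.674, SD, n = 4, two-sided exact permutation p = 0.629), so the deletion could not be checked at this depth. The labels do not say that the libraries come from separate animals, so p-values measure the spread between these samples, which may be technical.

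No chemokine or receptor gene reached the threshold, an adjusted p under 0.05 by the quasi-likelihood test of edgeR. Of the 59 genes, 26 passed the low-count filter (the 25 with 80 or more counts and Ccl12) and 0 of these passed the threshold, where 0.168% of all 12480 genes tested did (0.12% higher and 0.0481% lower in the knockout libraries). DESeq2, which fitted 52 of the genes and gave no adjusted p for 15 of them, passed 1, Ccl9. An unadjusted p under 0.05 was reached by 3 of the 26, Ccl9, Ccl2 and Ccl6, all higher in the knockout libraries, against 6.39% of all genes tested in either direction, 3.52% higher and 2.87% lower. The fitted log2 fold change was above 0 in 23 of the 26 (Ccl11, at 0.00 when rounded, among them), with a median of 0.17 and a range from -0.47 to 0.91. Over all genes tested the median was -0.001 and 49.7% lay above 0. In no tested chemokine or receptor gene were the genotypes free of overlap, which was seen in 4.24% of all genes tested.

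**Figure D1:**
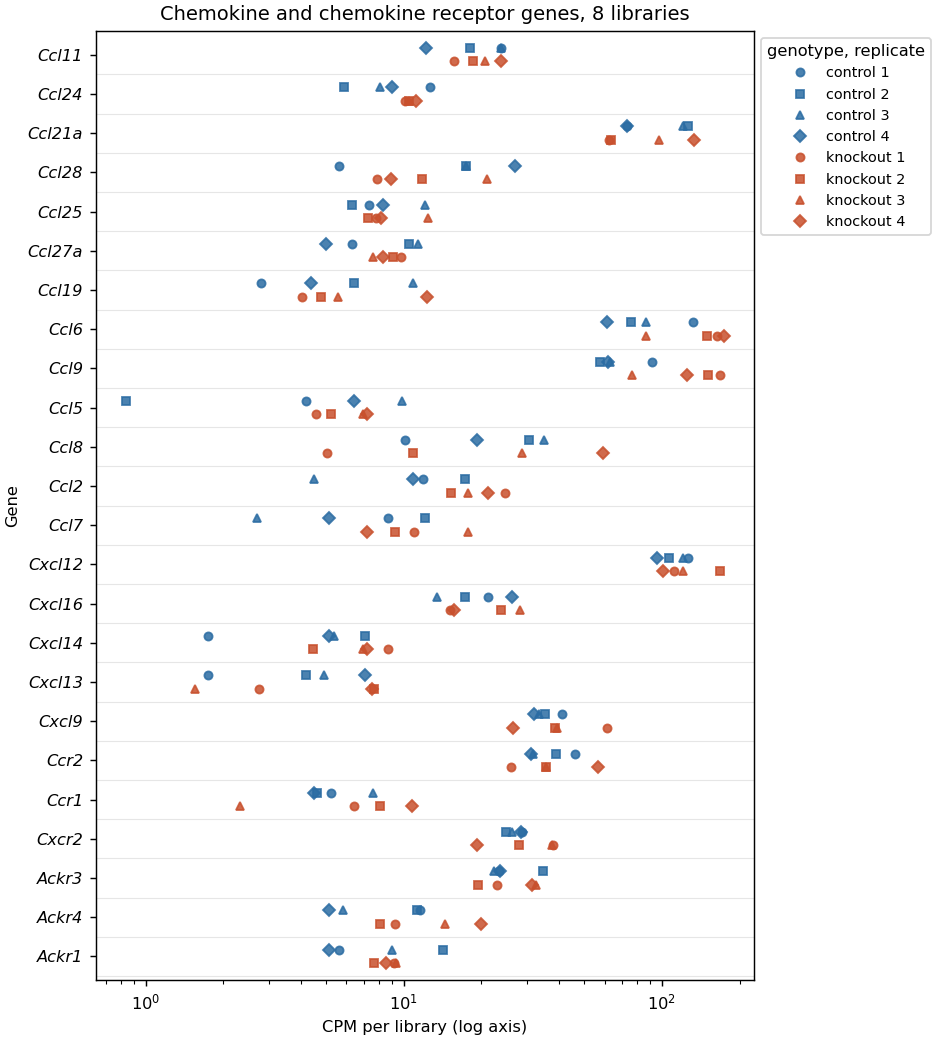
CPM (log axis) of the 24 genes described singly, 1 point per library, control libraries in blue and knockout libraries in red, with a symbol for each replicate. Within every gene the libraries of the genotypes overlap; Ccl9, Ccl6 and Ccl2 lie furthest to the right in the knockout libraries relative to the control libraries.

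**Figure D2:**
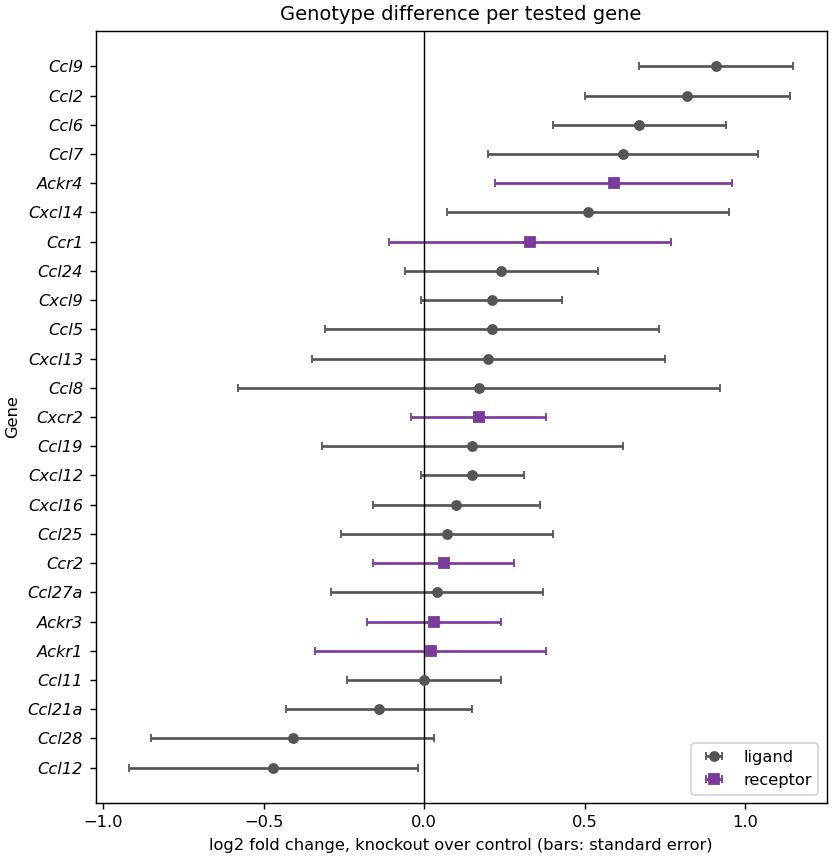
Fitted log2 fold change, knockout over control, of 25 of the genes tested, with bars of 1 standard error; ligands are circles and receptors squares. Values run from -0.47 for Ccl12 to 0.91 for Ccl9, and 3 lie below 0.

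The ligands related to macrophage inflammatory protein held the gene closest to the threshold. Ccl9 (chromosome 11, 83572919 to 83578636) encodes a ligand of Ccr1 made by macrophages and other myeloid cells. Its level was 91.7, 57.6, 63.2 and 61.6 CPM in control replicates 1 to 4 and 168, 151, 76.4 and 125 CPM in knockout replicates 1 to 4. Knockout replicates 1, 2 and 4 lay above every control library, while knockout replicate 3 lay below control replicate 1. The group values were 68.5 ± 15.7 and 130 ± 40.1 CPM (SD, n = 4), a 1.88-fold difference with a log2 fold change of 0.91 ± 0.24 (standard error) and an edgeR adjusted p of 0.406. Leaving out knockout replicate 3 raised the log2 fold change to 1.10 and brought the edgeR adjusted p to 0.0256, and DESeq2 gave 0.92 with an adjusted p of 0.0491. In the other settings tried the adjusted p lay between 0.173 and 0.858 and the log2 fold change between 0.77 and 1.10, so the direction held and the call did not. Ccl9 shares at least 1 word of 31 bases with 762 other genes, most with Smarcb1 (64 of its 3015 words), so part of its reads may be shared.

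Ccl6 (chromosome 11, 83587882 to 83593087) lies 9.2 kb from Ccl9 and encodes a related myeloid ligand. It was at 132, 75.7, 87 and 61.5 CPM in control replicates 1 to 4 and at 163, 150, 86.5 and 174 CPM in knockout replicates 1 to 4. As for Ccl9, control replicate 1 was the highest control library and knockout replicate 3 the lowest knockout library, and the latter fell inside the control range. The means were 89.2 ± 30.7 and 143 ± 39.2 CPM (SD, n = 4; log2 fold change 0.67 ± 0.27 standard error, edgeR adjusted p = 0.735). Ccl5, a T-cell and monocyte attractant, was at 0.837 to 9.87 CPM among control libraries and 4.58 to 7.21 CPM among knockout libraries (log2 fold change 0.21, edgeR adjusted p = 0.982). The 2 remaining genes of this group, Ccl3 and Ccl4, had totals of 14 and 30 counts and were not tested.

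The promoters of the neighbouring genes Ccl9 and Ccl6 are shown because both had an unadjusted p under 0.05, with that of Cxcl1, a CXC ligand whose libraries did not overlap between genotypes. Each is the 200 bases before the RefSeq start site in build GRCm38.p6, read 5′ to 3′ on the gene's strand. Capitals mark matches, on either strand, to 3 motifs: the NF-kB consensus, the ETS core GGAAGT bound by myeloid factors such as PU.1, and the TATA box TATAAA. The Ccl9 window is chr11:83578637-83578836 (minus strand), the Ccl6 window chr11:83593088-83593287 (minus strand) and the Cxcl1 window chr5:90891045-90891244 (plus strand), whose last 4 bases lie within the gene as GENCODE draws it.
Ccl9: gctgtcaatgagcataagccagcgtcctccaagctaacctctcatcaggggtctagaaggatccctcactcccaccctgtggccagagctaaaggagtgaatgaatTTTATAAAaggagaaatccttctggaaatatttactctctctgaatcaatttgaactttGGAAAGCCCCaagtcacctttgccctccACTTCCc
Ccl6: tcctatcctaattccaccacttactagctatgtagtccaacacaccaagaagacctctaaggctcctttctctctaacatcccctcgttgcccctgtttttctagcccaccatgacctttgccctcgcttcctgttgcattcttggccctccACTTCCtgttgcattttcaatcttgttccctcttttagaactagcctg
Cxcl1: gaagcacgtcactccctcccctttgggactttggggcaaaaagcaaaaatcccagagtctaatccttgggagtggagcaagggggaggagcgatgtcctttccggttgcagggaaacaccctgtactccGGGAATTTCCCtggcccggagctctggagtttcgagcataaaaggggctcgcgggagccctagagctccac

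Ccl9 and Ccl6 both hold the ETS core on the strand opposite to the gene's, so the printed letters read ACTTCC. The match lies 7 bases before the start in Ccl9 and 48 bases before it in Ccl6, counted to its first printed base. There it is part of their longest shared stretch, 13 bases that read gccctccacttcc. Ccl9 also holds an NF-kB match 35 bases before the start and overlapping TATA matches on both strands from base -94 to -87. In Cxcl1 overlapping NF-kB matches lie on both strands from base -71 to -61. Whether any of these matches is used was not tested. RefSeq promoters of 300 bases (250 before and 50 after the start) were found for 18 of the 25 genes with 80 or more counts. The NF-kB consensus was in 3 of the 18 and in 8.46% of all 32851 promoters, the ETS core in 6 and in 23.8%, and the TATA box in 7 and in 13.6%. Across the 153 pairs of these promoters the longest shared stretch had a median of 8 bases, and 13 bases was the highest value, reached by Ccl9 with Ccl6 and by Ackr4 with Ccr2.

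Of the monocyte-attracting ligands, Ccl2 differed most. Ccl2 (chromosome 11, 82035571 to 82037453), the main ligand of Ccr2, was at 11.9, 17.2, 4.49 and 10.9 CPM in control replicates 1 to 4 and at 24.7, 15.3, 17.8 and 21.3 CPM in knockout replicates 1 to 4. Control replicate 2 lay above knockout replicate 2, and the remaining control libraries lay below every knockout library. The means were 11.1 ± 5.2 and 19.8 ± 4.1 CPM (SD, n = 4), a 1.77-fold difference (log2 fold change 0.82 ± 0.32 standard error, edgeR adjusted p = 0.689). Its neighbour Ccl7, another Ccr2 ligand, was at 2.69 to 12.1 CPM among control libraries and 7.21 to 17.8 CPM among knockout libraries (log2 fold change 0.62, edgeR adjusted p = 0.91). Both genes were lowest in control replicate 3.

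Of the other ligands of that group, Ccl12 had a fold change of the opposite sign and Ccl8 one of the same sign. Ccl12, another ligand of Ccr2, was at 3.21 to 6.28 CPM among control libraries and 1.83 to 4.27 CPM among knockout libraries (log2 fold change -0.47, edgeR adjusted p = 0.935). Ccl8 (chromosome 11, 82115185 to 82116799), a Ccr8 ligand in mice, was at 10.1, 30.5, 35 and 19.2 CPM in control replicates 1 to 4 and at 5.04, 10.9, 28.7 and 59.4 CPM in knockout replicates 1 to 4. The knockout libraries thus held both the lowest and the highest value, 11.8-fold apart, and the log2 fold change of 0.17 had a standard error of 0.75 (edgeR adjusted p = 0.987). Its sign turned in 3 of the settings tried, to -0.65 without knockout replicate 4, -0.10 without control replicate 1 and -0.19 with the replicate number as a block.

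These ligands lie in 2 groups on chromosome 11, one of 6 genes from Ccl2 to Ccl1 with starts within 141.1 kb, and one of 5 genes from Ccl5 to Ccl4 with starts within 136.8 kb. Within each group the neighbours Ccl2 and Ccl7, and Ccl9 and Ccl6, had the highest fold changes. Further along the first group Ccl11 was at 0.00 and Ccl12 at -0.47 on the log2 scale, with standard errors of 0.24 and 0.45. Differences in fold change between neighbouring genes were not tested. The eotaxin Ccl11 (chromosome 11, 82057823 to 82062955), which attracts eosinophils through Ccr3, was at 23.8, 18, 23.8 and 12.2 CPM in control replicates 1 to 4 and at 15.6, 18.6, 20.6 and 23.9 CPM in knockout replicates 1 to 4 (log2 fold change 0.00 ± 0.24 standard error, edgeR adjusted p = 0.999). Ccl24 (chromosome 5, 135569937 to 135573049), an eotaxin on another chromosome, was at 12.6, 5.86, 8.07 and 8.98 CPM in control replicates 1 to 4 and at 10.1, 10.5, 10.5 and 11.2 CPM in knockout replicates 1 to 4 (log2 fold change 0.24, edgeR adjusted p = 0.943). Its knockout libraries lay close together inside the control range.

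**Figure D3:**
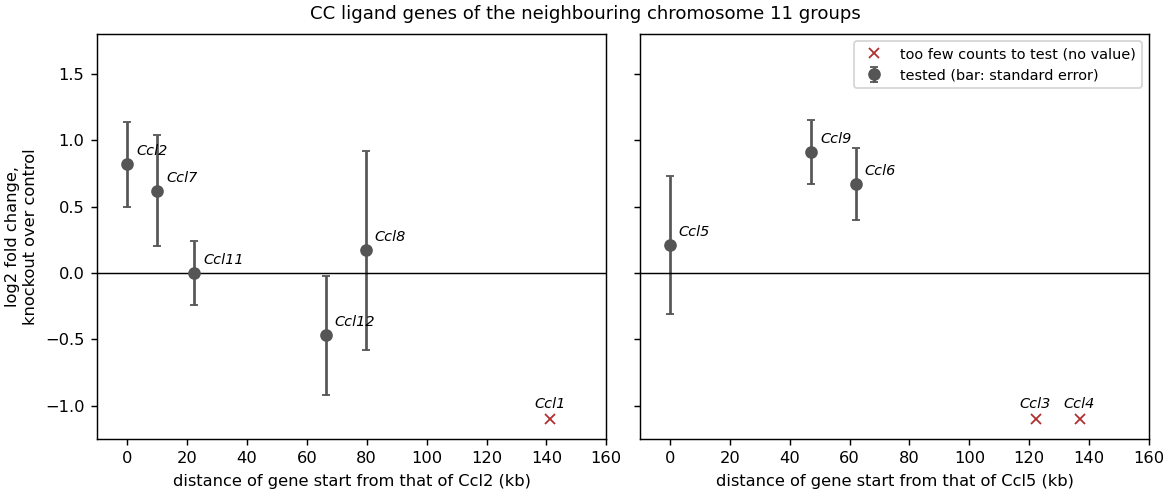
Log2 fold change, knockout over control, against the distance in kb from the first gene start, for the CC ligand genes of the neighbouring chromosome 11 groups; bars are 1 standard error and crosses at the foot mark genes with too few counts for a value. Ccl2 (0.82) and Ccl7 (0.62), and Ccl9 (0.91) and Ccl6 (0.67), lie highest, and Ccl12 (-0.47) lies lowest.

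Ligands that attract lymphocytes and dendritic cells showed no common direction, with 3 of 5 tested genes above 0 and a median log2 fold change of 0.04. Ccl21a (chromosome 4, 42772860 to 42773993), which lymphatic endothelium and lymph node stroma make for Ccr7-bearing cells, was at 73.3, 126, 121 and 73.6 CPM in control replicates 1 to 4 and at 62.3, 63.7, 97.5 and 133 CPM in knockout replicates 1 to 4. The libraries of both genotypes covered nearly the same range (log2 fold change -0.14 ± 0.29 standard error, edgeR adjusted p = 0.976). Of its 840 words of 31 bases, 677 are also in the copy Gm21541, so how its reads were split between the copies is uncertain. Ccl28 (chromosome 13, 119623819 to 119654359), a mucosal ligand of Ccr10 and Ccr3, was at 5.6, 17.4, 17.4 and 26.9 CPM in control replicates 1 to 4 and at 7.88, 11.8, 21 and 8.89 CPM in knockout replicates 1 to 4 (log2 fold change -0.41, edgeR adjusted p = 0.939). It shares at least 1 word of 31 bases with 346 other genes, most with Robo1 (23 of its 4795 words).

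The other genes of that group were low. Ccl19, the second ligand of Ccr7, was at 2.81 to 12.3 CPM over all libraries (log2 fold change 0.15, edgeR adjusted p = 0.984). Ccl25, the ligand of Ccr9, was at 6.28 to 12.4 CPM (0.07, adjusted p = 0.987), and Ccl27a, a ligand of Ccr10, at 5.01 to 11.4 CPM (0.04, adjusted p = 0.995). Ccl19 shares 526 of its 895 words with Gm2564, and Ccl27a 965 of its 2563 with Gm20878, so their reads too are uncertain. Ccl17 and Ccl22, which attract cells through Ccr4, had totals of 16 counts each. Ccl22 had 1 count over the control and 15 over the knockout libraries, in all 4 of which it was detected (two-sided exact permutation p = 0.0571). It was chosen for mention after its values were seen, and no test had been planned for genes with so few counts. Dendritic cell markers, from a list of 7 genes, summed to 38.8 to 48 CPM among control libraries and 46.3 to 60.8 CPM among knockout libraries (two-sided exact permutation p = 0.0571, adjusted p = 0.4), and their part in the Ccl22 counts was not tested. Of the 5 markers tested, Itgax had the largest log2 fold change (1.47, edgeR adjusted p = 0.418). Those of Zbtb46 (0.34), Xcr1 (0.21) and Siglech (0.12) were smaller, and that of Cd209a was below 0 (-0.28).

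The neutrophil-attracting CXC ligands were too low for the test. Cxcl1 (chromosome 5, 90891241 to 90893115), a ligand of Cxcr2, had 3, 3, 1 and 0 counts in control replicates 1 to 4 and 10, 6, 9 and 10 counts in knockout replicates 1 to 4. Every knockout library lay above every control library, and Cxcl1 was the only one of the 59 genes without overlap. Such separation was seen in 1.31% of genes under the filter with a total above 0 and under 80, and in 2.84% of those with a total of 30 or more. Its levels were 0.688 ± 0.572 and 3.44 ± 0.888 CPM (SD, n = 4, two-sided exact permutation p = 0.0286, the smallest that 4 against 4 libraries allow). When all genes above 0 were fitted, edgeR gave a log2 fold change of 2.12 with an adjusted p of 0.599, and DESeq2 gave 2.20 with 0.641. Cxcl1 was chosen for this description after its values were seen. Any gene without overlap has the exact permutation p of 0.0286, so that p adds nothing to the lack of overlap. For genes under 80 counts only the range of counts had been planned, without a test. Cxcl2, its neighbour with the same receptor, had 5, 3, 2 and 0 counts in control replicates 1 to 4 and 2, 13, 5 and 6 counts in knockout replicates 1 to 4, which overlap. Cxcl5, Cxcl15 and Cxcl3 had totals of 20.2, 10 and 2.36 counts.

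Among the other CXC ligands no difference was detectable. Cxcl12 (chromosome 6, 117168535 to 117181367), a stromal ligand of Cxcr4 and Ackr3, was at 126, 107, 121 and 96.2 CPM in control replicates 1 to 4 and at 111, 168, 121 and 101 CPM in knockout replicates 1 to 4. Knockout replicate 2 stood highest and the remaining libraries lay between 96.2 and 126 CPM (log2 fold change 0.15 ± 0.16 standard error, edgeR adjusted p = 0.939). Cxcl9 (chromosome 5, 92321347 to 92328079), an interferon-gamma-induced ligand of Cxcr3, was at 41.1, 35.3, 33.3 and 31.9 CPM in control replicates 1 to 4 and at 61.2, 38.5, 39.4 and 26.4 CPM in knockout replicates 1 to 4. Its knockout libraries held both extremes (log2 fold change 0.21 ± 0.22 standard error, edgeR adjusted p = 0.939). Cxcl9 shares at least 1 word of 31 bases with 100 other genes, most with Olfr109 (12 of its 2964 words). Cxcl10, which is induced alongside it, had a total of 33 counts.

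Cxcl16 (chromosome 11, 70453983 to 70459984), a membrane-bound ligand of Cxcr6, was at 21.3, 17.2, 13.5 and 26.3 CPM in control replicates 1 to 4 and at 15.1, 23.8, 28.3 and 15.7 CPM in knockout replicates 1 to 4 (log2 fold change 0.10, edgeR adjusted p = 0.982). Cxcl14, expressed in many epithelia and in adipose tissue, was at 1.75 to 7.11 CPM among control libraries and 4.44 to 8.7 CPM among knockout libraries (log2 fold change 0.51, edgeR adjusted p = 0.922). Cxcl13, the B-cell attractant, was at 1.55 to 7.67 CPM over all libraries (log2 fold change 0.20, edgeR adjusted p = 0.982). In all 3 genes the genotypes overlapped.

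**Figure D4:**
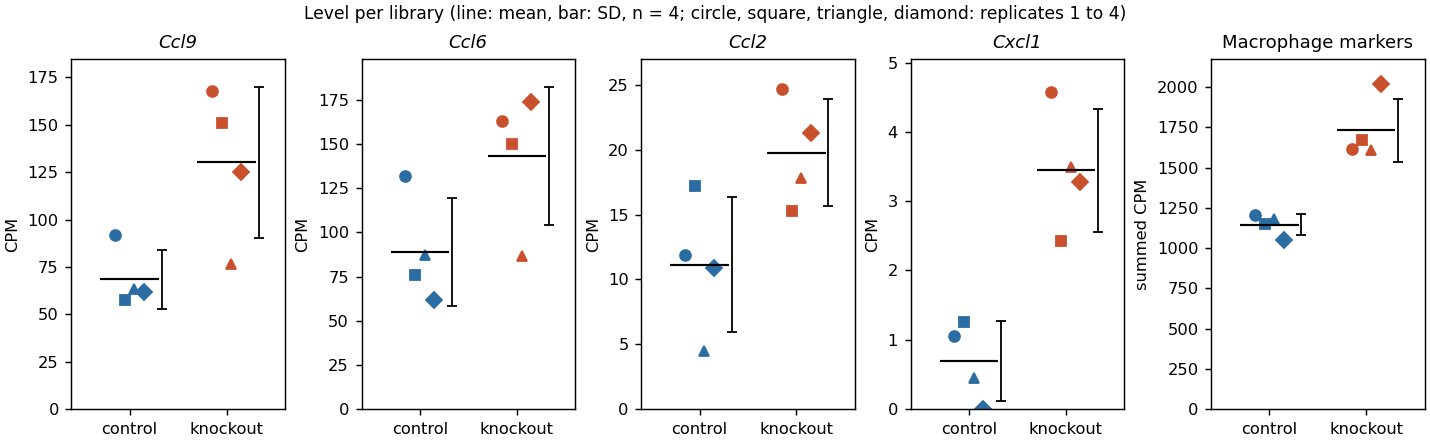
CPM of Ccl9, Ccl6, Ccl2 and Cxcl1, and the summed CPM of 16 macrophage markers, in each library, with the mean (line) and SD (bar) of each genotype, n = 4. The ligands Ccl9, Ccl6 and Ccl2 overlap between genotypes, whereas Cxcl1 and the macrophage sum (1051 to 1207 against 1613 to 2023 CPM) do not.

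The sum of the macrophage markers, in which Lyz2 weighed most, moved with the genotype in the same libraries. The summed level of 16 macrophage markers was 1051 to 1207 CPM among control libraries and 1613 to 2023 CPM among knockout libraries (two-sided exact permutation p = 0.0286, adjusted p = 0.4 over 14 marker lists). That exact permutation p is the smallest that 4 against 4 libraries allow. With no other list separated, it could not pass 0.05 after adjustment over 14 lists. Lyz2 alone was at 355 to 403 CPM among control libraries and 599 to 797 CPM among knockout libraries. Of its 15 tested markers 13 were higher, and Cd68, Ctss, Gpnmb and Lyz2 passed an edgeR adjusted p of 0.05. Csf1r (0.30) and Adgre1 (0.46, both log2 fold changes) did not, and Mertk (-0.06) and Cd163 (-0.19) were lower. This list was chosen with earlier results of these data known. Expressed as a percentage of the summed marker level, Ccl9 stood at 7.6, 5.01, 5.37 and 5.85 percent for control replicates 1 to 4 and at 10.4, 9.05, 4.74 and 6.19 percent for knockout replicates 1 to 4 (means 5.96 and 7.6, two-sided exact permutation p = 0.286). The same percentage went from 7.7 ± 2.27 to 8.25 ± 2.02 for Ccl6 (SD, n = 4, exact permutation p = 0.714) and from 0.974 ± 0.457 to 1.15 ± 0.264 for Ccl2 (SD, n = 4, exact permutation p = 0.486), and adjusted over the 3 genes each p was 0.714. These percentages were computed after the levels had been seen, and the part of macrophage number in the ligand levels was not tested. In bulk tissue, fewer cells of a type and less RNA per cell cannot be told apart.

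The CC receptors of monocytes and macrophages did not differ beyond their spread. Ccr2 (chromosome 9, 124101950 to 124113557), the receptor of Ccl2 on monocytes, was at 46, 39, 31.8 and 31 CPM in control replicates 1 to 4 and at 26.1, 35.5, 35.7 and 56.5 CPM in knockout replicates 1 to 4. The knockout libraries held the lowest and the highest value, and the log2 fold change was 0.06 ± 0.22 (standard error, edgeR adjusted p = 0.985). Ccr2 shares at least 1 word of 31 bases with 435 other genes, so part of its reads may be shared. Ccr1, which binds Ccl9 and Ccl6, was at 4.49 to 7.62 CPM among control libraries and 2.33 to 10.8 CPM among knockout libraries (log2 fold change 0.33, edgeR adjusted p = 0.949).

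The 4 monocyte markers tested, of 7 listed, had a median log2 fold change of -0.17, and their summed level over all 7 was 105 ± 8.7 CPM for control and 110 ± 16.7 CPM for knockout libraries (SD, n = 4, exact permutation p = 0.629). Ace, at 58.9 to 85.3 CPM, made up most of that sum. The 4 tested markers had no common direction: log2 fold changes were 0.05 for Ace, 0.62 for Vcan, -0.39 for Plac8 and -0.81 for Ly6c2. Ccr2, a gene that monocytes carry, lay beside a marker sum that also overlapped between genotypes, and how its level relates to monocyte number was not tested.

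Cxcr2 (chromosome 1, 74153989 to 74161246), the neutrophil receptor for Cxcl1 and Cxcl2, was the only CXC receptor with enough counts. It was at 28.8, 24.8, 26.2 and 28.5 CPM in control replicates 1 to 4 and at 37.8, 27.9, 37.4 and 19.2 CPM in knockout replicates 1 to 4 (log2 fold change 0.17 ± 0.21 standard error, edgeR adjusted p = 0.945). The knockout libraries held the highest and the lowest value. Of 9 neutrophil markers, Ly6g and Ltf were at 0 in every library and the sum of the list was 6.98 to 17.5 CPM, so Cxcr2 counts stood beside few other neutrophil transcripts. Cxcr2 shares at least 1 word of 31 bases with 525 other genes, most with Dnajb14 (101 of its 3039 words), so part of its reads may be shared. Cxcr4, the receptor of Cxcl12, had 59 counts in total, Cxcr6 had 49, Cxcr5 had 28 and Cxcr3 had 21, while Cxcr1 was at 0.

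The 3 atypical receptors tested had a median log2 fold change of 0.03. Ackr3 (chromosome 1, 90203980 to 90216751), which scavenges Cxcl12, was at 23.4, 34.7, 22.4 and 23.7 CPM in control replicates 1 to 4 and at 22.9, 19.4, 32.6 and 31.5 CPM in knockout replicates 1 to 4 (log2 fold change 0.03 ± 0.21 standard error, edgeR adjusted p = 0.992). Ackr4 (chromosome 9, 104084157 to 104126933), which scavenges Ccl19, Ccl21 and Ccl25, was at 11.6, 11.3, 5.83 and 5.13 CPM in control replicates 1 to 4 and at 9.22, 8.07, 14.4 and 20 CPM in knockout replicates 1 to 4. Knockout replicates 3 and 4 lay above every control library and knockout replicates 1 and 2 inside the control range (log2 fold change 0.59 ± 0.37 standard error, edgeR adjusted p = 0.896). Ackr4 shares words of 31 bases with 995 other genes, the largest overlap being 8 words out of 5342, with Dennd1a. Ackr1, an endothelial and red-cell receptor that carries many ligands, was at 5.13 to 14.2 CPM among control libraries and 7.67 to 9.31 CPM among knockout libraries (log2 fold change 0.02, edgeR adjusted p = 0.998), and 327 of its 1420 words of 31 bases are also in Cadm3. Ackr2, the scavenger of inflammatory CC ligands, had 75 counts in total and was not tested.

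The other low genes gave levels near the counting floor. Ccr9 had a total of 69.1 counts and lay above that floor in every library (5.281 to 15.16 counts). Ccr7 had a total of 34, Ccr10 of 10, Ccr4 of 5.87, Ccr6 and Ccr3 of 5 each, Ccr8 of 1 and Ccl1 of 2. Gene copies on scaffolds outside the assembled chromosomes had few counts: the Ccl27 copies had 37.6 and 24.4 counts, spread over both genotypes, and the Ccl21b copy had 20.4 counts, all in knockout replicate 1. At 0 in all libraries were Ccl20, Ccl26, Ccl27b, Cxcl17, Cxcr1 and the scaffold copies of Ccl19 and Ccl21a. T- and NK-cell markers, the cells that carry Cxcr3, Cxcr6 and Ccr7, were low too, at 17.2 to 26.4 CPM in sum over 12 genes.

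The libraries differed in how often they were the highest. Knockout replicate 4 held the highest level of 8 of the 25 genes, namely Ccl6, Ccl8, Ccl11, Ccl19, Ccl21a, Ccr1, Ccr2 and Ackr4, and it held the highest level of 14.4% of all genes tested. Knockout replicate 1 was highest for 5 of the 25 and for 12.9% of all genes tested. Control replicate 4, the smallest library, was highest for 1 of the 25 and for 19.8% of all genes tested. The macrophage sum of knockout replicate 4, at 2023 CPM, was likewise the highest of the 8, as was the summed level of the lymphatic and lymph node stroma markers, at 142 CPM; the part of either in these levels was not tested.

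Genes that act with chemokines were read from 5 lists of 93 genes, of which 78 were tested. Of the 78, 1 passed an adjusted p of 0.05, higher in the knockout libraries, where 0.168% of all genes tested passed. An unadjusted p under 0.05 was reached by 10, all higher, against 6.39% of all genes tested (3.52% higher and 2.87% lower), and the median log2 fold change was 0.13. The gene that passed was C3ar1, the receptor of the complement fragment C3a, which attracts macrophages. It was at 20.1, 20.5, 19.4 and 14.7 CPM in control replicates 1 to 4 and at 33.4, 33.3, 41.1 and 36.6 CPM in knockout replicates 1 to 4, with no overlap (log2 fold change 0.95 ± 0.17 standard error, edgeR adjusted p = 0.038). Leaving out any 1 library ended the call, with adjusted p-values from 0.0507 to 0.179, while the log2 fold change stayed between 0.86 and 0.99. With the replicate number as a block its log2 fold change was 0.95 and its adjusted p 0.175. With all 8 libraries and no block the call stayed. The edgeR adjusted p was 0.0401 with RLE factors, 0.0438 with upper-quartile factors, 0.00636 without a filter and 0.0469 with a total of 80 counts. DESeq2 gave an adjusted p of 0.008. The macrophage marker sum given above was higher in the same libraries, Itgam stood in both that list and the migration list, and the part of macrophage number in these values was not tested.

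By role, the migration machinery had 20 of 23 tested genes above 0 with a median log2 fold change of 0.15. Its smallest p-values belonged to Itgb2, the beta subunit of leukocyte integrins (12.1 ± 4.32 against 25.1 ± 0.642 CPM, SD, n = 4, edgeR adjusted p = 0.222), and Dock2, an activator of Rac in migrating leukocytes (14.7 ± 3.47 against 24.9 ± 3.22 CPM, SD, n = 4, edgeR adjusted p = 0.428). Of 18 G-protein and effector genes 13 were above 0, with a median of 0.08; Adcy7 and Gng5 had the smallest p-values (log2 fold changes 0.59 and 0.23, edgeR adjusted p = 0.482 and 0.775). Of 12 genes that desensitize receptors 7 were above 0, with a median of 0.08. Rgs1, which ends G-protein signalling in leukocytes, was at 1.99 ± 1.78 against 8.06 ± 0.921 CPM (SD, n = 4; log2 fold change of 1.90, edgeR adjusted p = 0.32), and Rgs10 had a log2 fold change of 0.54 (edgeR adjusted p = 0.703). Of 12 inducing cytokine and transcription factor genes 5 were above 0, with a median of -0.02. The NF-kB subunit gene Nfkb1 was at 53.4 ± 2.16 against 68.7 ± 5.13 CPM without overlap (SD, n = 4; log2 fold change of 0.36, edgeR adjusted p = 0.51), and its inhibitor gene Nfkbia had a log2 fold change of 0.25 (edgeR adjusted p = 0.816). Among the 13 tested chemotactic genes outside the symbol rule, which include C3ar1, 10 were above 0 with a median of 0.21.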

How the data were processed

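Libraries were made by BRB-seq, a 3′-end method with oligo-dT priming, Tn5 tagmentation and amplification by PCR in 10 cycles, and the insert read was 51 bases long, per the labels' protocols. The submitters' processing notes name Salmon and GRCm38 without version or role; the annotation and any use of molecular identifiers are not given in the sources used here. The deposited table gives an estimated count for each gene, not normalized by the authors; 59.6% of values above 0 were exactly whole, with no tolerance. They were rounded, since the design had been written for counts. Identifiers were matched without version to GENCODE release M21 (GRCm38), 34652 of 34866 found. Knockout was compared with control by edgeR 4.0.16 under R 4.3.3 (robust quasi-likelihood F test, genotype only, TMM factors, filterByExpr; standard error taken as the log2 fold change over the square root of F) with Benjamini-Hochberg adjustment over 12480 genes and a threshold of 0.05. Values outside that model were compared by an exact permutation test, two-sided (scipy 1.17.1).

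Settings also tried were upper-quartile and RLE factors, no filter, a total of 80 counts, DESeq2 1.42.0, the replicate number as a block, and leaving out each library. Of the genes with 80 or more counts 24 are named, and 1 is counted but not reported here; those with an unadjusted p under 0.05, without overlap, or with the largest totals of their role group are given per library, and of each pathway list the genes past the threshold or else the 2 with the smallest p. The members, lists and rules were chosen with earlier results of these data known. The edgeR test was checked on simulated data with known changes. Protein sequences were not used here. Words of 31 bases shared between transcripts of GENCODE M21 show where reads may be divided among genes. Replicate pairs differed by a chi-square of 4.48 to 9.4 per degree of freedom, more than sampling alone.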

Additional observations from a re-analysis of the deposited data

Results flagged for a closer look

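Dixon's test for a stray value was applied to 78 sets of 4 libraries, and 6 sets exceeded its critical value, of which chance would account for 3.9. Control replicate 1 stood high for Ccl9, at 91.7 CPM, while the remaining controls were at 57.6 to 63.2 CPM. Ackr3 was likewise high in control replicate 2, at 34.7 CPM beside 22.4 to 23.7 CPM. Among knockout libraries, replicate 4 had a macrophage marker sum of 2023 CPM beside 1613 to 1673 CPM in the rest. The T- and NK-cell marker sum of knockout replicate 2 was 20.9 CPM beside 17.2 to 17.6 CPM, and the epididymis marker sum of knockout replicate 3 was 14 CPM beside 1.31 to 3.23 CPM. Knockout replicate 1 was low for mast cell and eosinophil markers, at 23.5 CPM beside 38.5 to 39.9 CPM.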

How the results depend on the processing

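No chemokine or receptor gene passed the threshold with edgeR and all 8 libraries under any normalization, filter or design tried. DESeq2 passed 1, Ccl9, with 5 of 52 fitted genes at an unadjusted p under 0.05. The filtered edgeR fit had 3 of 26 there, and the unfiltered edgeR fit 4 of 52. Cxcl1 and Ccl22, which the filter removed, were among those of DESeq2 and of the unfiltered fit. The share of all genes at that p was read only for the filtered edgeR fit with all 8 libraries (6.39%). The counts of the other settings therefore have no share beside them and cannot be set against all genes. Leaving out 1 library gave 0 to 1 passed (1 without knockout replicate 3) and 1 to 4 at an unadjusted p under 0.05 (1 without control replicate 3 and 1 without knockout replicate 1). Over all genes 21 passed, 58 without a filter, 53 with DESeq2 and 4 to 43 when 1 library was left out (4 without control replicate 2, 43 without control replicate 4). Of the pathway genes 1 passed, 2 without a filter and 0 when any 1 library was left out. Medians kept their sign, at 0.08 to 0.24 for the chemokine and receptor genes and 0.08 to 0.14 for the pathway genes. The cause of these changes was not tested. Cyp19a1, at a log2 ratio of -0.45, lay between -1.18 and 0.33 with single libraries removed (0.33 without control replicate 3). Of the 25 genes with 80 or more counts, 13 changed the sign of their fold change under at least 1 setting.

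Adding the replicate block left 6 genes past the threshold, 0 of them chemokine, receptor or pathway genes, and the chemokine and receptor median was 0.12. Deviations of same-numbered libraries correlated at 0.25, -0.06, -0.01 and -0.24 for numbers 1 to 4. Only for number 1 was the same-numbered knockout library the best match of the control library. The labels link these libraries only by number, and 4 correlations cannot settle whether they share anything else. At 0 to 10 counts per library, differences in genes such as Cxcl1 rest on a few reads.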
